A study of Rattus norvegicus with 10 samples.

Results

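Mex3c, Trim2 and Ndfip2 are 3 genes of the protein ubiquitination machinery whose messenger RNA sequence is carried as a probe on a rat circular RNA (circRNA) array. They were taken by name, through the RefSeq transcript accession that the array gives each probe, and they are 3 of the 38 named genes measured by the array's 62 linear-transcript probes. The Mex3c probe is A_43_P20016 (NM_001107377), the Trim2 probe is A_44_P761041 (NM_001108552) and the Ndfip2 probe is A_44_P1047638 (NM_001108390). Each probe is printed as 10 spots on every array.

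The arrays measured synovial tissue, the lining of the joint, from male rats aged 7 to 8 weeks, labelled day 21. One group was of rats with collagen-induced arthritis (CIA), where animals immunised with collagen develop inflamed joints, and the other of normal rats, with 5 samples each and 1 single-colour Cy3 array per sample. Total RNA of both groups was digested with RNase R, an enzyme that digests linear RNA from its ends and leaves circular RNA intact. Each probe therefore reads what remained of its linear transcript together with any circle that holds the probed exon. Since the labels do not state that the numbered samples came from different animals, the p-values cover the spread among these samples, which may be technical.

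Ubiquitin is a small protein that is joined to other proteins, often as a mark for destruction by the proteasome. The last step is carried out by ubiquitin ligases, which choose the target. Mex3c is a ligase with a RING domain that also binds RNA through KH domains, and it is known for promoting the decay of messenger RNAs. Trim2 is a RING ligase of the tripartite motif family, best known from neurons, where it acts on neurofilament light chain. Ndfip2 is not a ligase but a membrane adaptor that recruits and activates the Nedd4 family of HECT ligases through its PY motifs, as does its close relative Ndfip1.

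Scanning took place in 2 runs. The first included the 5 CIA arrays and normal replicate 1, and the second the remaining 4 normal arrays, so that run and group largely coincide. The 75th percentile of the circRNA signal was 133 to 315 units on the normal arrays and 263 to 381 units on the CIA arrays. On the normal arrays 88.2% to 98.4% of circRNA probes were well above background, and on the CIA arrays 93.4% to 99.8%. Levels below are the mean log2 processed signal over the spots of a probe minus the log2 of that 75th percentile on the same array, so that 0 is the brightness of the circRNA probe at that percentile. Of 37 marker symbols for 9 cell types, 1 was measured by a named probe: Map2, a neuronal microtubule protein. The synovial label could therefore not be checked against cell type markers. The Map2 level was -3.77 ± 0.24 in normal tissue and -3.78 ± 0.55 in CIA (SD, n = 5 each). Because the tissue was measured in bulk, fewer cells of a type and less RNA per cell cannot be told apart. The number of arrays, 5 a group, limits precision, as do signals near background and the overlap of scan run with group.

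The comparison of CIA with normal synovium asked whether the RNA of these genes differs in arthritic joints, and none of the 3 passed an adjusted p of 0.05. The mean of Mex3c was 2.09-fold higher on the CIA arrays, a value that rests on normal arrays partly below background. It turned below 1 after normexp background correction, whose offset exceeds the probe's signal on every array and which cannot decide its direction. The mean of Trim2 was 5.60-fold lower. Both had an unadjusted p under 0.05, while the 95% confidence interval of the Ndfip2 difference included 0. Over all 62 linear-transcript probes, 2 (3.23%) had an adjusted p under 0.05 in limma, 1 in each direction, and 19 (30.6%) had an unadjusted p under 0.05. Of the latter, 7 probes (11.3%) were higher in CIA, as Mex3c was, and 12 (19.4%) were lower, as Trim2 was. With scan run as a block, 0 probes (0%) passed in limma and 1 (1.61%) had an unadjusted p under 0.05. The estimates of Trim2 and Ndfip2 changed sign with the block, as did 28 of the 62 (45.2%). The groups overlapped for each of the 3 genes, and did not overlap for 3 of the 62 probes (4.84%).

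**Figure D1:**
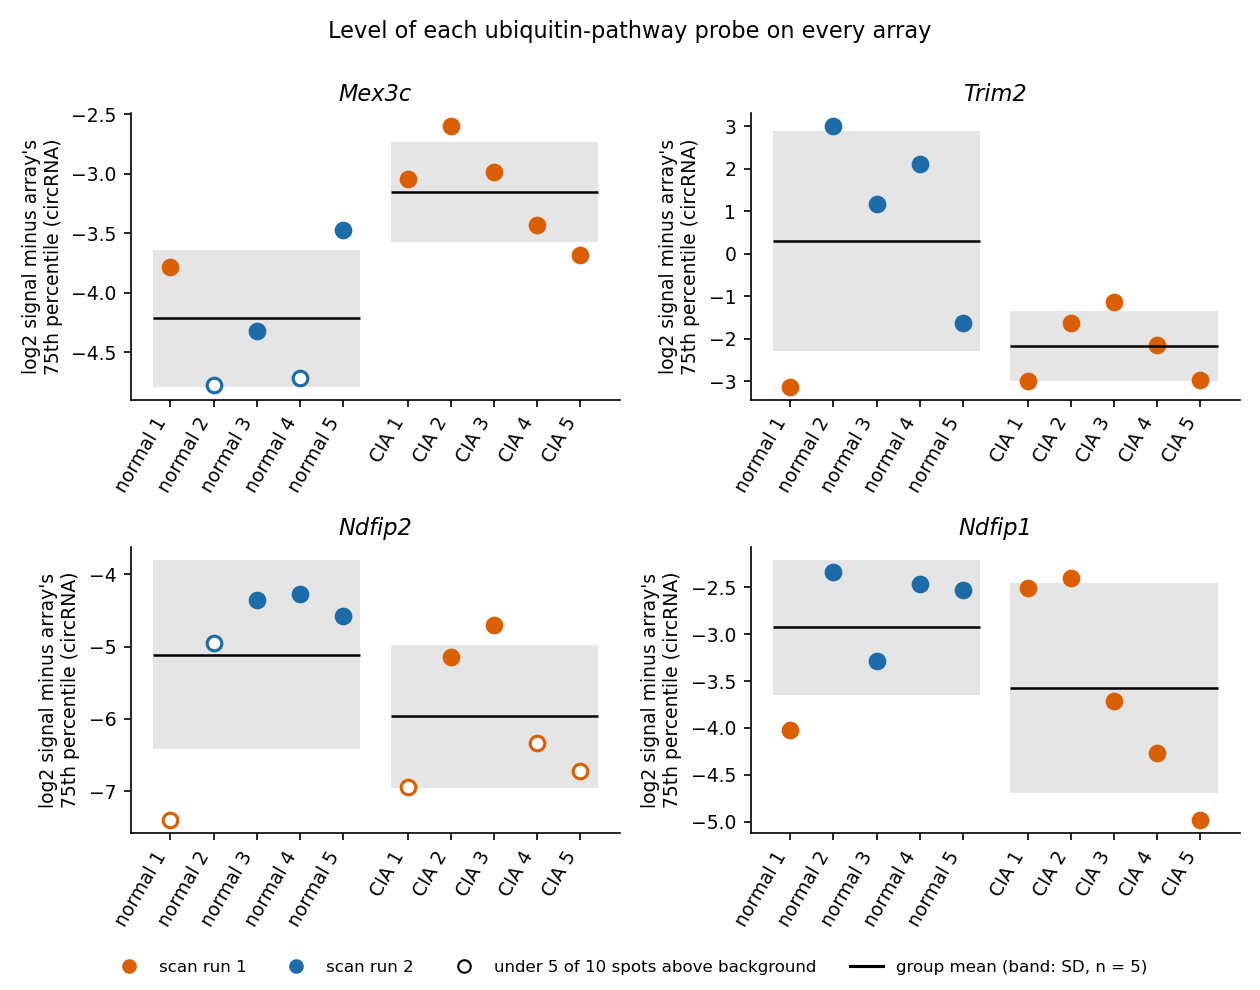
Level of Mex3c, Trim2, Ndfip2 and Ndfip1 on each array, as log2 processed signal minus the 75th percentile of circRNA probes on that array; colours mark the scan run, open points have fewer than 5 of 10 spots well above background, lines are group means and bands their SD (n = 5). Trim2 stands at 1.18 to 3.0 on normal replicates 2 to 4 and at -3.13 to -1.13 on the other 7 arrays, and the groups overlap in every panel.

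Mex3c, the RNA-binding ligase, was dim on every array. Its level was -3.78, -4.78, -4.33, -4.71 and -3.47 on normal replicates 1 to 5. On CIA replicates 1 to 5 it was -3.04, -2.60, -2.99, -3.43 and -3.69. Normal replicate 5 lay above CIA replicate 5, and the other normal arrays lay below all 5 CIA arrays. The mean level was -4.22 ± 0.57 in normal tissue and -3.15 ± 0.42 in CIA (SD, n = 5 each). The log2 fold change, CIA minus normal, was 1.06 (SE 0.35, 95% confidence interval 0.31 to 1.82, limma unadjusted p = 0.0098, adjusted p = 0.076 over the 62 probes). The median log2 fold change of the 62 probes was 0.12. A two-sided exact permutation test of the difference gave p = 0.016 (adjusted p = 0.12 over the 62 probes).

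The processed signal of Mex3c was 6.12 to 22.9 units on normal arrays and 28.9 to 48.0 units on CIA arrays. All 50 CIA spots were well above background, against 28 of the 50 normal spots. On normal replicates 2, 3 and 4 it was 1, 5 and 2 of 10 spots, so the level on those 3 arrays lies near or below the limit of what was measured and the fold change rests on it. After normexp background correction, which was run with an offset of 50 units that shrinks differences between dim signals, the log2 fold change was -0.19 (95% confidence interval -0.58 to 0.21, limma adjusted p = 0.43), against a median of -0.34 over the 62 probes. The direction of Mex3c therefore held in the other alternatives but not in that one. The offset exceeds the processed signal of Mex3c on every array, so the corrected level depends in part on the 75th percentile subtracted. Before the correction that percentile was 133 to 315 units on normal arrays and 263 to 381 units on CIA arrays. For a probe this dim, that setting cannot decide the direction.

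Mex3c was the one gene of the 3 whose estimate kept its sign when scan run was taken into account. In scan run 1, normal replicate 1 stood at -3.78 and the CIA arrays at -3.15 ± 0.42 (SD, n = 5), with every CIA array above it. The estimate with scan run as a block was 0.63 (SE 0.59, 95% confidence interval -0.65 to 1.92, limma adjusted p = 0.89). It compares the CIA arrays with that 1 normal array, whose spread is not measured. The normal arrays of scan run 2 had a mean of -4.32 ± 0.60 (SD, n = 4), and the term for scan run 2 minus run 1 was -0.54 (SE 0.60, limma adjusted p = 0.57). Leaving out normal replicate 1 or normal replicate 5 brought the limma adjusted p of Mex3c to 0.026 and 0.039, at log2 fold changes of 1.17 and 1.25. Of all 62 probes, 24 passed without normal replicate 1 and 8 without normal replicate 5. Without normal replicate 1, the scan run and the group of an array cannot be told apart.

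**Figure D2:**
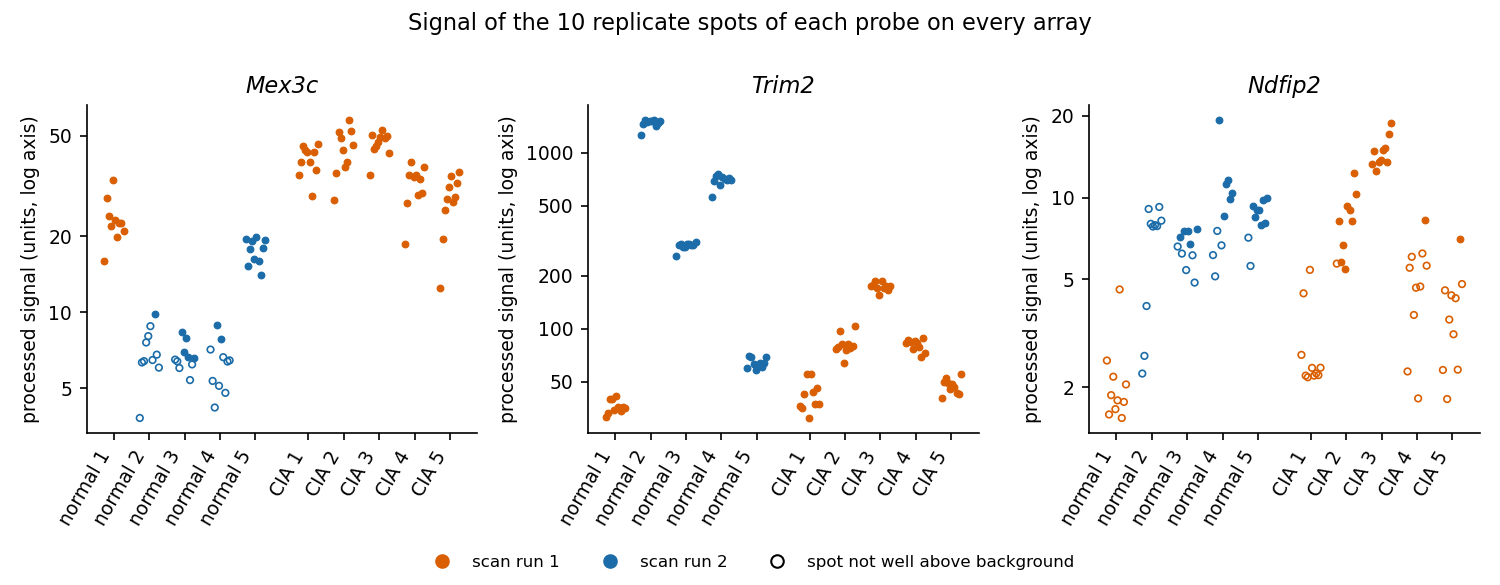
Processed signal of each of the 10 spots of the Mex3c, Trim2 and Ndfip2 probes on every array (log axis); colours mark the scan run and open circles are spots not well above background. Spots of Trim2 lie close together on each array while the arrays differ widely, and the Ndfip2 spots of normal replicate 1 are all open.

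Trim2, the tripartite motif ligase, had a spread among normal arrays as large as its difference between the groups. Its level was -3.13, 3.0, 1.18, 2.11 and -1.63 on normal replicates 1 to 5. On CIA replicates 1 to 5 it was -2.99, -1.64, -1.13, -2.15 and -2.98. Normal replicates 2, 3 and 4 lay above every CIA array, normal replicate 5 lay within the CIA range and normal replicate 1 lay below it. The processed signals behind these levels were 36.0 units on normal replicate 1, 1495, 301 and 696 units on normal replicates 2, 3 and 4, and 64.0 units on normal replicate 5, against 41.4 to 174 units on the CIA arrays. The normal arrays thus spanned 69.8-fold relative to their circRNA 75th percentile and the CIA arrays 3.62-fold.

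The mean level of Trim2 was 0.31 ± 2.59 in normal tissue and -2.18 ± 0.82 in CIA (SD, n = 5 each). The log2 fold change was -2.49 (SE 1.02, 95% confidence interval -4.72 to -0.25, limma unadjusted p = 0.032, adjusted p = 0.12), which was second in size among the 62 probes. The same exact test over the 252 divisions of the arrays into 5 and 5 gave p = 0.11 (adjusted p = 0.22 over the 62 probes). The SD of Trim2 among normal arrays was the highest of the 62 probes. Over all 10 arrays its SD was 2.23, which ranked 2 among the 62 probes. Of 13891 circRNA probes, 26 (0.19%) had a larger one. These were the circRNA probes well above background on at least 5 arrays and never marked as outliers.

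This spread between arrays was far larger than the spread between spots. All 100 Trim2 spots were well above background and none was saturated. The SD of the log2 signal over the spots of an array was 0.03 to 0.28, with a median of 0.12, against an SD of 2.59 between normal arrays. On normal replicate 2 the spots used ran from 1424 to 1535 units, and on normal replicate 1 from 31.6 to 41.5 units. The difference between arrays was therefore read alike by the repeated spots.

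The 3 normal arrays with high Trim2 were all of scan run 2, and so was normal replicate 5, which read low. Normal arrays of run 2 had a mean level of 1.17 ± 2.01 (SD, n = 4). In scan run 1, normal replicate 1 at -3.13 lay below all 5 CIA arrays, and with scan run as a block the log2 fold change turned to 0.95 (SE 1.30, 95% confidence interval -1.90 to 3.80, limma adjusted p = 0.89). The term for scan run 2 minus run 1 in that fit was 4.29 (SE 1.33, limma adjusted p = 0.078), and 2 of the 62 probes (3.23%) passed for this term. Normal replicates 2 to 4 also had the lowest shares of circRNA probes well above background, 88.2%, 89.4% and 90.5%, and the lowest circRNA 75th percentiles, 187, 133 and 161 units. The part of scan run and of signal strength in the Trim2 levels was not tested. Without normal replicate 1, the log2 fold change of Trim2 was -3.34 with a limma adjusted p of 0.012, when 24 of the 62 probes passed. Scan run and group then coincide. With array weights it was -3.49 with a limma adjusted p of 0.0067, when 27 of the 62 probes passed. Normal replicate 1 had the lowest weight, 0.30, and normal replicates 2 to 4 the highest, 1.77, 2.24 and 1.74. Normal replicate 5, also of scan run 2, had a weight of 0.65. That fit therefore leans on the normal arrays with high Trim2, replicates 2 to 4. It gives less weight to those with low Trim2, replicates 1 and 5.

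Ndfip2, the adaptor of Nedd4-type ligases, lay close to background in both groups. Its level was -7.40, -4.96, -4.35, -4.28 and -4.57 on normal replicates 1 to 5. On CIA replicates 1 to 5 it was -6.94, -5.14, -4.70, -6.32 and -6.71. At least 5 of the 10 spots were well above background on normal replicates 3, 4 and 5 (3 of 5 arrays) and on CIA replicates 2 and 3 (2 of 5 arrays). These 5 arrays ranged from -5.14 to -4.28, with both CIA arrays below the 3 normal ones. The processed signals did not keep that order. They were 7.45 and 14.7 units on CIA replicates 2 and 3. On normal replicates 3, 4 and 5 they were 6.53, 8.27 and 8.32 units. The order of the levels therefore depends on the circRNA percentile subtracted. Both CIA arrays were of scan run 1 and the 3 normal ones of run 2, so scan run and group coincide here. Counted by spot, 19 of 50 were well above background in normal tissue and 21 of 50 in CIA. The levels on the other 5 arrays, among them -4.96 on normal replicate 2, are limits rather than measured amounts. Their order carries no information.

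The mean level of Ndfip2 was -5.11 ± 1.31 in normal tissue and -5.96 ± 0.99 in CIA (SD, n = 5 each), with a log2 fold change of -0.85 (SE 0.64, 95% confidence interval -2.26 to 0.55, limma adjusted p = 0.37). Its spots also scattered most of the 3 probes, with an SD of 0.18 to 0.77 within an array. The brightest array was CIA replicate 3 at 14.7 units, and normal replicate 1 was at 1.86 units. With scan run as a block the log2 fold change turned to 1.44 (SE 0.77, 95% confidence interval -0.25 to 3.13, limma adjusted p = 0.89) and again compares the CIA arrays with normal replicate 1 alone. The term for scan run 2 minus run 1 was 2.86 (SE 0.79, limma adjusted p = 0.065). Both estimates rest on normal replicate 1, where 0 of 10 spots were well above background and the level is a limit. Without normal replicate 1 the log2 fold change was -1.42, with a limma adjusted p of 0.032, when 24 of the 62 probes passed, 16 of them lower in CIA. After normexp background correction it was -0.69, with a limma adjusted p of 0.040, when 14 of the 62 probes passed, 13 of them lower, and the median over the 62 was -0.34.

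Ndfip1, the relative of Ndfip2 and the one other gene of the ubiquitin list measured here, was well above background on all 10 arrays. Its level was -4.02, -2.33, -3.29, -2.46 and -2.53 on normal replicates 1 to 5. On CIA replicates 1 to 5 it was -2.50, -2.40, -3.72, -4.26 and -4.99. CIA replicates 1 and 2 lay among the high normal arrays and CIA replicates 4 and 5 lay below every normal array. The log2 fold change was -0.65 (SE 0.54, 95% confidence interval -1.82 to 0.53, limma adjusted p = 0.42), and it was 0.45 (SE 0.86) with scan run as a block. On CIA replicate 1 the Ndfip1 level was among the highest of its group while 0 of 10 Ndfip2 spots were well above background. The Ndfip2 level there is a limit, and the lowest signal well above background on that array was 10.3 units. Whether the 2 adaptors differed in which CIA arrays read high was not tested.

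The ubiquitin list held the ligase and adaptor families named above, ubiquitin genes, conjugating enzymes, proteasome subunits and deubiquitinases, and 4 of its genes were measured: Mex3c, Trim2, Ndfip2 and Ndfip1. Of these 4, 0 passed the adjusted limma test in either direction, against 3.23% of all 62 probes. Mex3c and Trim2, in opposite directions, had an unadjusted p under 0.05, against 30.6% of all probes. The median log2 fold change was -0.75 for the 4 genes and 0.12 for all 62 probes. None of the ligases that Ndfip2 activates was measured by a named probe.

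**Figure D3:**
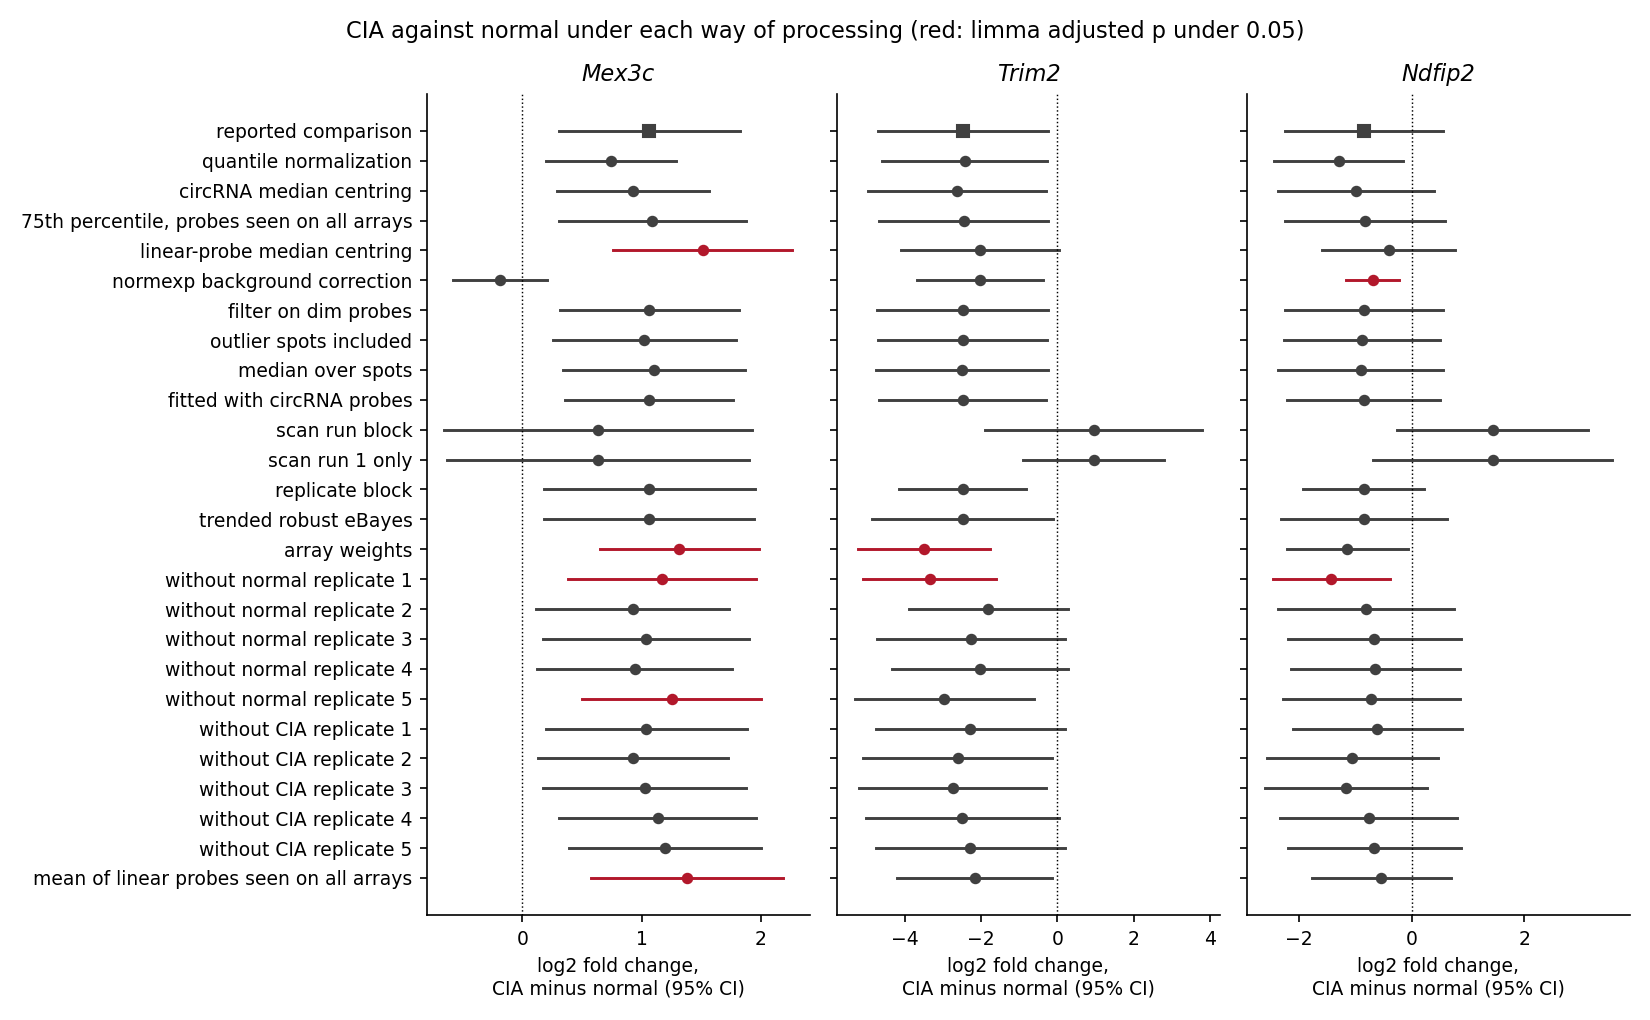
Log2 fold change, CIA minus normal, with its 95% confidence interval for Mex3c, Trim2 and Ndfip2 under each way of processing, in red where the limma adjusted p was under 0.05. The Mex3c estimate is -0.19 after normexp background correction and above 0 elsewhere, while those of Trim2 and Ndfip2 are below 0 except with scan run as a block or in scan run 1 only (0.95 and 1.44).

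The named genes whose levels followed each member most closely over the 10 arrays were found from the mean absolute difference between log2 profiles, each centred on its own mean. For Trim2 they were Rplp1, a ribosomal stalk protein, Hsp90ab1, a cytosolic chaperone, and Actb, beta-actin, at 0.93, 1.17 and 1.19, against a median of 1.86 over the 37 other named genes. Like Trim2, Rplp1 was bright on normal replicates 2 and 4, at 2.72 and 2.84, and low on normal replicates 1 and 5, at -0.63 and -0.29. Unlike Trim2, it read 0.22 on normal replicate 3. Actb is the one named gene that passed the adjusted limma test, with an estimate of -1.86 on the log2 scale (SE 0.44, adjusted p = 0.037) that was -0.43 (SE 0.57) with scan run as a block.

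For Mex3c the closest genes were Med16, a subunit of the Mediator complex, Gusb, the lysosomal enzyme beta-glucuronidase, and Slc28a2, a nucleoside transporter, at 0.36, 0.36 and 0.40, against a median of 0.80. The 3 genes were well above background on all 10 arrays, unlike Mex3c, and their log2 fold changes were 0.53, 0.56 and 0.82, with limma adjusted p-values of 0.18, 0.20 and 0.17. With scan run as a block the estimates were 0.37 for Med16, -0.13 for Gusb and -0.34 for Slc28a2, so those of Gusb and Slc28a2 changed sign. For Ndfip2 the closest were Fgf2, a fibroblast growth factor, Pdk3, a kinase that inhibits pyruvate dehydrogenase, and Pgk1, a glycolytic kinase, at 0.38, 0.58 and 0.66, against a median of 1.05. Fgf2, also well above background on all 10 arrays, stood at -3.28 on normal replicate 1 and at -1.79 to -1.09 on the other normal arrays, and at -3.86, -1.43, -2.53, -3.08 and -3.43 on CIA replicates 1 to 5. Its log2 fold change was -1.03 (SE 0.52, limma adjusted p = 0.19), and the estimate was 0.41 with scan run as a block. Because 5 of the 10 Ndfip2 levels and 2 of the 10 Mex3c levels are not well above background, the distances for these genes rest in part on limits and the order of their neighbours is uncertain. These profiles come from the same arrays and the same scaling as those of the members.

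**Figure D4:**
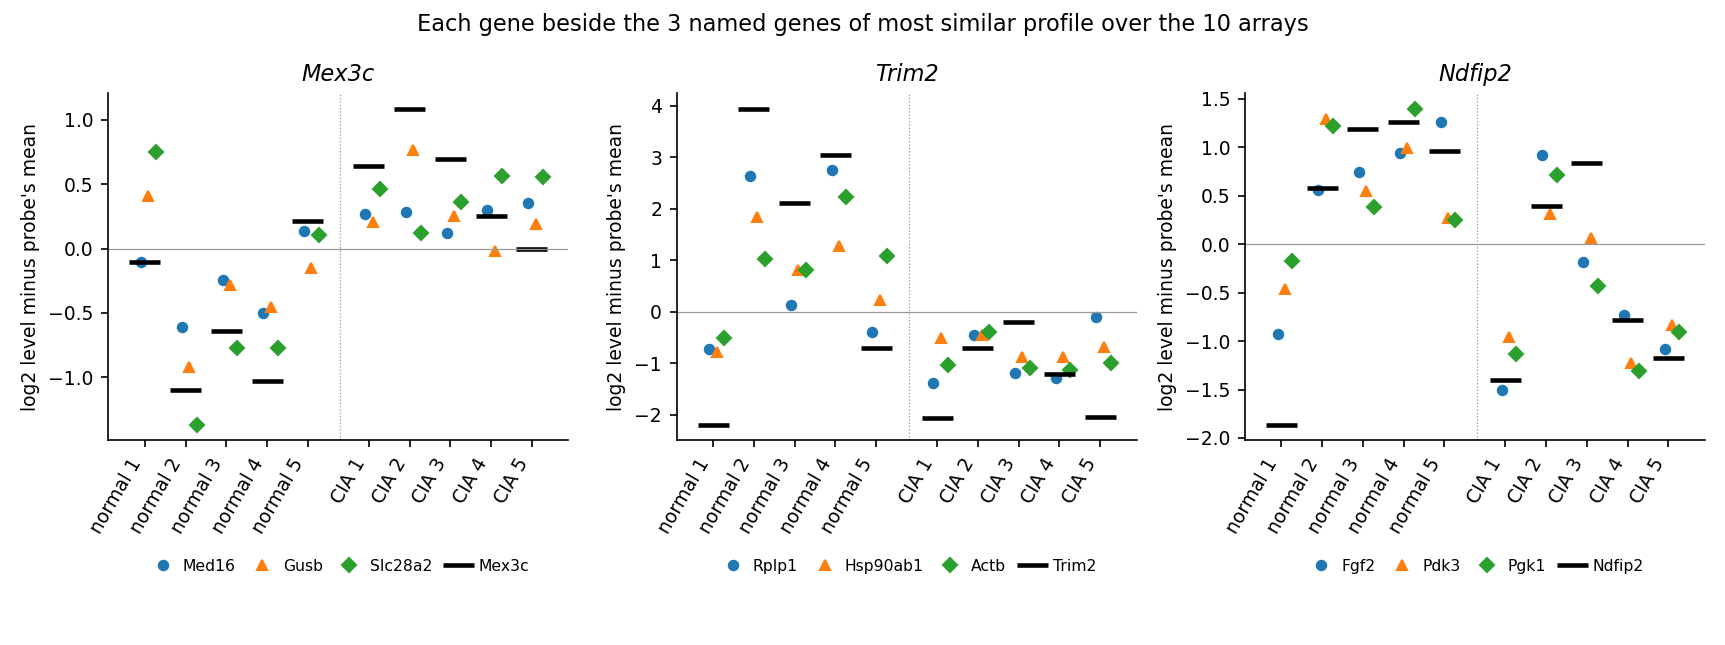
Log2 level minus the probe's own mean over the 10 arrays for Mex3c, Trim2 and Ndfip2 (black bars) and the 3 named genes of most similar profile (coloured symbols). Normal replicate 1 lies apart from normal replicates 2 to 4 in each panel, and on normal replicates 2 to 4 the Trim2 bar lies above the 3 other genes.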

How the data were processed

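Per the file headers, the 10 single-colour arrays were read by Agilent Feature Extraction 11.0.1.1, which gave intensity values background-subtracted within the array and not normalized between arrays. The flags for spots well above background, saturated or outlying are other values set by that software, per the file headers. Limma appears in the submitters' processing notes, with neither its version nor its use. The authors' deposited log2 value table holds 14145 rows, all of circRNA probes, and was not used.

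Groups and replicate numbers came from the sample titles, and scan runs from the scan time recorded in each header. Spots marked as outliers were left out, log2 processed intensities were averaged over the spots of a probe, and the 75th percentile of all circRNA probes on that array was subtracted. A probe counted as well above background where at least 50% of its spots were. All 62 linear-transcript probes were tested without a filter in limma 3.58.1 (lmFit, eBayes; R 4.3.3), with Benjamini-Hochberg adjustment and a two-sided threshold of 0.05. The procedure was tested on simulated data. Gene names came from a RefSeq table of assembly GRCr8, by accession without version, for 39 probes (38 genes). Its coordinates are of another build than the array's and are not given. Figures used matplotlib 3.10.9 in Python 3.11.15.

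The named genes were the members, measured genes of the ubiquitin list, the 3 genes nearest each member in profile, and genes past the threshold. Members and lists were chosen with earlier results of these data known. Beside the ubiquitin list, lists of cell type markers were looked up. Same-numbered arrays of the groups did not deviate together (correlation -0.09 to 0.18 across circRNA probes, over 0.1 in 1 of 5 pairs), so the numbers were not taken as pairs.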

Additional observations from a re-analysis of the deposited data

Results flagged for a closer look

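Ndfip2 on normal replicate 1, at a level of -7.40, stood apart from the other 4 normal arrays, the nearest of which was at -4.96. The gap was 0.78 of the group's range, above the limit of 0.71 for 5 samples. On both arrays 0 of the 10 spots were well above background, so both levels are limits and the size of the gap between them is not a measured difference. Chance marks about 1 in 20 such groups, and 6 groups were examined.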

How the results depend on the processing

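Mex3c kept its direction and missed the adjusted threshold in 20 of 26 alternatives, Trim2 in 22 and Ndfip2 in 22; their adjusted p ranged over all alternatives from 0.0067 to 0.92, 0.0067 to 0.92 and 0.032 to 0.92. Mex3c passed at 1.51 after centring on the linear-probe median, at 1.32 with array weights and at 1.38 after centring on the mean of the 45 linear probes seen on all arrays, a setting added after the data were seen; after normexp it was -0.19. Trim2 passed at -3.49 with array weights (adjusted p 0.0067), and was 0.95 with the scan run block or in scan run 1 only. The array weights, for Mex3c as for Trim2, counted normal replicate 1 least, at 0.30. Ndfip2 passed at -0.69 after normexp, and was 1.44 with the scan run block or in scan run 1 only. The normexp offset of 50 units exceeds the signal of Mex3c and of Ndfip2 on every array, so that setting cannot decide either gene. Leaving out 1 array gave 0.92 to 1.25 for Mex3c, -3.34 to -1.81 for Trim2 and -1.42 to -0.61 for Ndfip2. The count of linear probes at a limma adjusted p under 0.05, 2 as reported (1 higher, 1 lower), was 5 with quantile normalization (1 higher, 4 lower), 6 after linear-probe median centring (5 higher, 1 lower), 14 after normexp (1 higher, 13 lower), 6 after the added centring (4 higher, 2 lower), 27 with array weights and 5 with the replicate block, under which no call of the 3 genes changed. It was 0 when fitted with circRNA probes (21 at an unadjusted p under 0.05), with the scan run block (1) and in scan run 1 only (1), and 0 to 24 with 1 array left out: 24 without normal replicate 1, 8 without normal replicate 5, 1 without CIA replicate 3, and 0 without any one of normal replicates 2, 3 and 4 or CIA replicates 1, 4 and 5 (10 to 15 at an unadjusted p under 0.05). The median log2 fold change of the linear probes moved from 0.12 to -0.15 with quantile normalization, to 0.56 after linear-probe centring, to 0.43 after the added centring and to -0.34 after normexp. The 2 linear-probe centrings subtract a single value per array, so each moved the estimates of all probes by the same amount. The Mex3c values of 1.51 and 1.38 include that common shift. What lies behind the shifts was otherwise not tested. The deposited value table could not be used as an alternative because its rows are circRNA probes. Signals near background limit Mex3c on normal arrays and Ndfip2 in both groups.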
